A study of Homo sapiens with 6 samples.

Results

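Translational efficiency (TE) and ribosome occupancy of the coding sequence (CDS) are both readings of how many ribosomes an mRNA carries, and in HEK293 cells they broadly ranked genes alike. The 150 genes described here are those where they did not. They were chosen by the percentile rank of mean TE minus the percentile rank of mean CDS occupancy over the 6912 genes listed in both deposited tables, keeping the 150 largest absolute differences. In 69 of them TE ranked above occupancy and in 81 it ranked below. Both measures chose the members, so their TE and occupancy are given as a description and no test was run on them.

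The data come from ribosome profiling of HEK293, a line derived from human embryonic kidney, with 3 libraries of ribosome-protected fragments (RPFs) and 3 total RNA libraries, numbered 1 to 3. All 6 carry the label of a control siRNA, so the libraries are of a single condition and no groups of samples were compared. The RPFs and the total RNA of a number were taken from the same lysate, and the methods say that the procedure was carried out 3 times, without naming the cultures. VIM, NEFL, NEFM and ENO2, genes known to be expressed in this line, are listed in both tables, whereas AQP1, AQP2, UMOD, SLC12A1, ALB and PTPRC, markers of mature kidney, liver and blood cells, are in neither.

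Ribosome profiling sequences the fragments of mRNA that ribosomes shield from nuclease. Dividing fragments by the amount of mRNA gives the ribosome load of an average copy of that mRNA, which depends on how often ribosomes initiate and how fast they move. In bulk lysate a low amount of mRNA in every cell and its absence from some cells cannot be told apart. In the TE table each replicate has a value on a linear scale, RPFs relative to total RNA. The sources used here do not give the formula. The occupancy table holds in-frame RPF counts at each codon of a single representative transcript of a gene, normalised for library size and divided by the mRNA abundance (TPM) of that transcript, with the replicates combined. Occupancy therefore has no replicate error and is given as the authors' pooled value. Over the 6912 genes the measures had a Spearman coefficient of 0.688. The points share their RPF and total RNA libraries, and the coefficient is a description.

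The spread of TE between replicates is given for the members as a description. The rule used all 3 replicates, and every difference is taken from the same pooled occupancy, so the sign of a difference in a single replicate was nearly fixed by the choice. The smallest difference of a member in any replicate was 43.9 percentile points. The TE percentile of a member moved between replicates by a median of 2.30 points where TE ranked above occupancy and by 7.22 points where it ranked below, against 3.53 points over all shared genes. The widest range was 25.4 points, in C15orf57, whose TE was 0.125, 0.163 and 0.289 in replicates 1, 2 and 3. The membership itself has no natural edge. ATAD2 (−54.98 points) and ZNF805 (−54.96) lay just inside the limit of 150, and FMR1 (−54.86) and FXR1 (−54.85) just outside it.

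**Figure D1:**
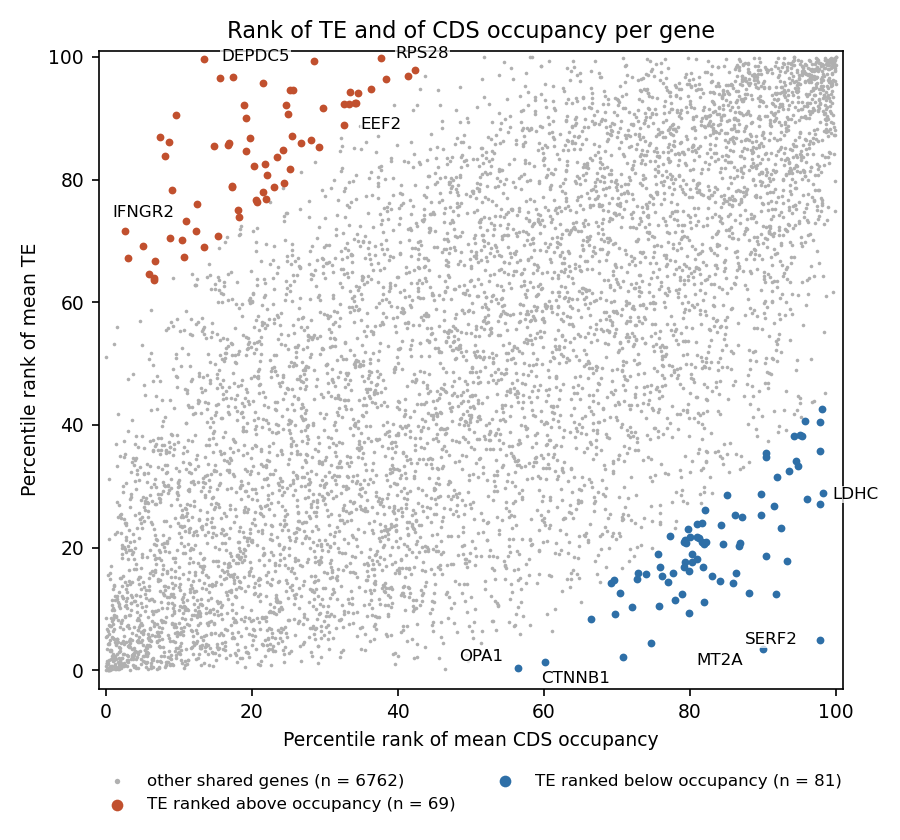
Percentile rank of mean TE (n = 3 replicates, y axis) against percentile rank of mean CDS occupancy (replicates combined, x axis) for 6912 genes, one point per gene. The 69 members with TE ranked above occupancy fill the upper left corner and the 81 with TE ranked below fill the lower right, and both corners were set by the rule.

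Where TE ranked above occupancy, the TE of the 69 members had a median of 1.27 and a range from 0.568 to 30.2, and their occupancy had a median of 0.0277 per codon, against medians of 0.390 and 0.0524 over all shared genes. The widest difference was that of DEPDC5, a subunit of the GATOR1 complex that restrains mTORC1 when amino acids are short. Its TE was 18.1, 18.8 and 14.1 in the 3 replicates (17.0 ± 2.53, SD, n = 3), which placed it at percentile 99.7. Its occupancy of 0.0223 per codon was at percentile 13.5, a difference of 86.2 points. The gene lies on chromosome 22 of GRCh37 from 32149853 to 32304019. Of the 30-mers of its CDS 92.5% also occur in a transcript of another annotated gene, and its CDS occupancy rests on about 402 reads. How reads of shared sequence were assigned was not tested, so its value is uncertain.

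UBE2S, an E2 ubiquitin-conjugating enzyme that works with the anaphase-promoting complex, had a TE of 1.93, 1.88 and 1.61 and an occupancy of 0.0185, a difference of 80.9 points. ALG14, which takes part in building the oligosaccharide for N-glycosylation, had a TE of 3.62, 3.48 and 3.40 and an occupancy of 0.0240. CRK, an adaptor of tyrosine kinase signalling, had a TE of 3.51, 3.89 and 3.57 and an occupancy of 0.0255. The replicates of TE lay close together in ALG14 and CRK (coefficients of variation 3.09% and 5.66%) and less so in UBE2S (9.49%). SLC25A33, a mitochondrial carrier of pyrimidine nucleotides, had a TE of 1.44, 1.45 and 1.30 and an occupancy of 0.0163, with 80.7% of its CDS 30-mers shared with other genes. ALG14 and CRK had no shared 30-mers. UBE2S had 78.6%.

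Among the 10 largest differences of this sign, GADD45GIP1, a protein of the mitochondrial ribosome, had a TE of 1.13, 1.35 and 1.52 with an occupancy of 0.0176. MALSU1, an assembly factor of the mitochondrial large subunit, had a TE of 3.08, 3.13 and 3.24 with an occupancy of 0.0288. Both are small single-isoform genes with next to no shared 30-mers (0 and 0.296%). FAM208B had a TE of 1.02, 1.24 and 1.28 over the longest CDS of the 69 (2431 codons), and C15orf61 had 1.27, 1.99 and 1.95 from about 408 reads. RPL12, a protein of the large ribosomal subunit, had a TE of 2.00, 2.17 and 2.21 and an occupancy of 0.0266, with 84.6% of its CDS 30-mers shared.

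Genes of the translation apparatus were prominent among the members with TE above occupancy. EEF2, RPL4, EEF1G and RPS15 were among the 5 members of this sign with the most CDS reads, so these were also among the most deeply sampled. EEF2, the elongation factor that translocates the ribosome, had a TE of 1.53, 1.61 and 1.62 (1.59 ± 0.0476, SD, n = 3) and an occupancy of 0.0380 from about 392920 reads, a difference of 56.3 points. It had a single RefSeq mRNA isoform and 0% shared CDS 30-mers. EEF1G, a subunit of the factor that delivers aminoacyl-tRNA, had a TE of 1.21, 1.39 and 1.36 and an occupancy of 0.0250, but all of its CDS 30-mers (100%) also occur in another annotated gene.

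RPL4 had a TE of 2.15, 2.15 and 2.09 with an occupancy of 0.0379, and RPS15 had 1.85, 2.21 and 2.45 with 0.0393. These 2, from the large and the small ribosomal subunit, had similar values on both measures. RPS12 was higher on both (TE 3.65, 3.87 and 3.81, occupancy 0.0448). RPS28 had the highest value of the 69, at 28.9, 32.8 and 28.9, with an occupancy of 0.0417, over a CDS of only 70 codons whose 30-mers were all shared with another gene. Of the 67 cytosolic ribosomal protein genes in both tables, 6 were members with TE above occupancy and 0 were members of the other sign. The list made up 8.70% of the 69 and 0.969% of all shared genes. The whole list leaned the same way, with 55 of 67 genes positive and a median difference of 17.4 points, against 0.0145 points over all shared genes. Ribosomal protein genes have many processed pseudogenes, and in the 5 members named here 73.9% to 100% of CDS 30-mers are shared. How reads of such sequence were assigned was not tested, so their values are uncertain.

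Of 50 genes listed as translation factors by their symbols, EEF1G, EEF2 and EIF4EBP1 were members, all with TE above occupancy. That is 4.35% of the 69 against 0.723% of all shared genes. The list takes in regulators with such symbols, EIF4EBP1 among them. EIF4EBP1, the mTORC1 target that binds and restrains the cap-binding protein eIF4E, had a TE of 0.560, 0.723 and 0.581 and an occupancy of 0.0155 at percentile 6.77. The mitochondrial ribosome gave MRPL41, MRPL23 and MRPS15 with TE above occupancy and MRPL33 with TE below, of 68 genes with a median difference of 10.8 points. That is 4.35% of the 69 and 1.24% of the 81, against 0.984% of all shared genes. Cytochrome c oxidase gave COX5B, COX6A1 and COX8A, all with TE above, of 35 genes of respiratory complexes other than complex I, which is 4.35% of the 69 against 0.506% of all shared genes. MRPL41 (TE 1.93, 2.40 and 2.01) and COX5B (1.82, 2.17 and 2.08) had 0% shared CDS 30-mers. Of 40 complex I genes and 37 proteasome genes 0 were members, which says little in lists of this size. Over all shared genes 0.998% were members with TE above and 1.17% with TE below.

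Where TE ranked below occupancy, the TE of the 81 members had a median of 0.172 and a range from 0.0425 to 0.321, and their occupancy had a median of 0.106 per codon. TE varied more between replicates in these genes, with a median coefficient of variation of 14.3%, against 7.01% in the members of the other sign and 7.17% over all shared genes. The widest difference of all 150 was that of SERF2. Its TE was 0.0813, 0.0732 and 0.0996 in the 3 replicates (0.0847 ± 0.0135, SD, n = 3), at percentile 4.93, and its occupancy of 0.333 was at percentile 97.8, a difference of −92.9 points. SERF2 lies on chromosome 15 of GRCh37 from 44069285 to 44096625. The transcript taken to represent it has the shortest CDS of all shared genes, 46 codons, which is 5.03% of the transcript, and RefSeq lists 5 mRNA isoforms.

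MT2A, a metallothionein that binds zinc and copper, had a TE of 0.0717, 0.0908 and 0.0600 and an occupancy of 0.148 over 62 codons, a difference of −86.5 points. It is a single-isoform gene, and 60.5% of its CDS 30-mers occur in other genes, among a family of close copies. FAM107B had a TE of 0.102, 0.0885 and 0.196 and GULP1, an adaptor for the engulfment of apoptotic cells, had 0.0671, 0.145 and 0.203. In these 2 genes the replicates differed by over 2 times. RefSeq lists 17 mRNA isoforms of FAM107B and 32 of GULP1, and neither had shared 30-mers.

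PRKACB, a catalytic subunit of protein kinase A, had a TE of 0.107, 0.119 and 0.165 and an occupancy of 0.135, with 30 RefSeq isoforms. CCDC82 had a TE of 0.199, 0.148 and 0.127 and an occupancy of 0.180. ATP6AP2, an accessory subunit of the vacuolar ATPase, had a TE of 0.105, 0.126 and 0.137 and an occupancy of 0.106. MED17, a subunit of the Mediator complex, had the tightest TE of the 10 (0.114, 0.105 and 0.117) and an occupancy of 0.0992. ATP6AP2 and MED17 each have a single RefSeq isoform, and 94.1% of the CDS 30-mers of MED17 are shared. LDHC and ANAPC11, the other two of the 10, are described with their codon profiles.

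**Figure D2:**
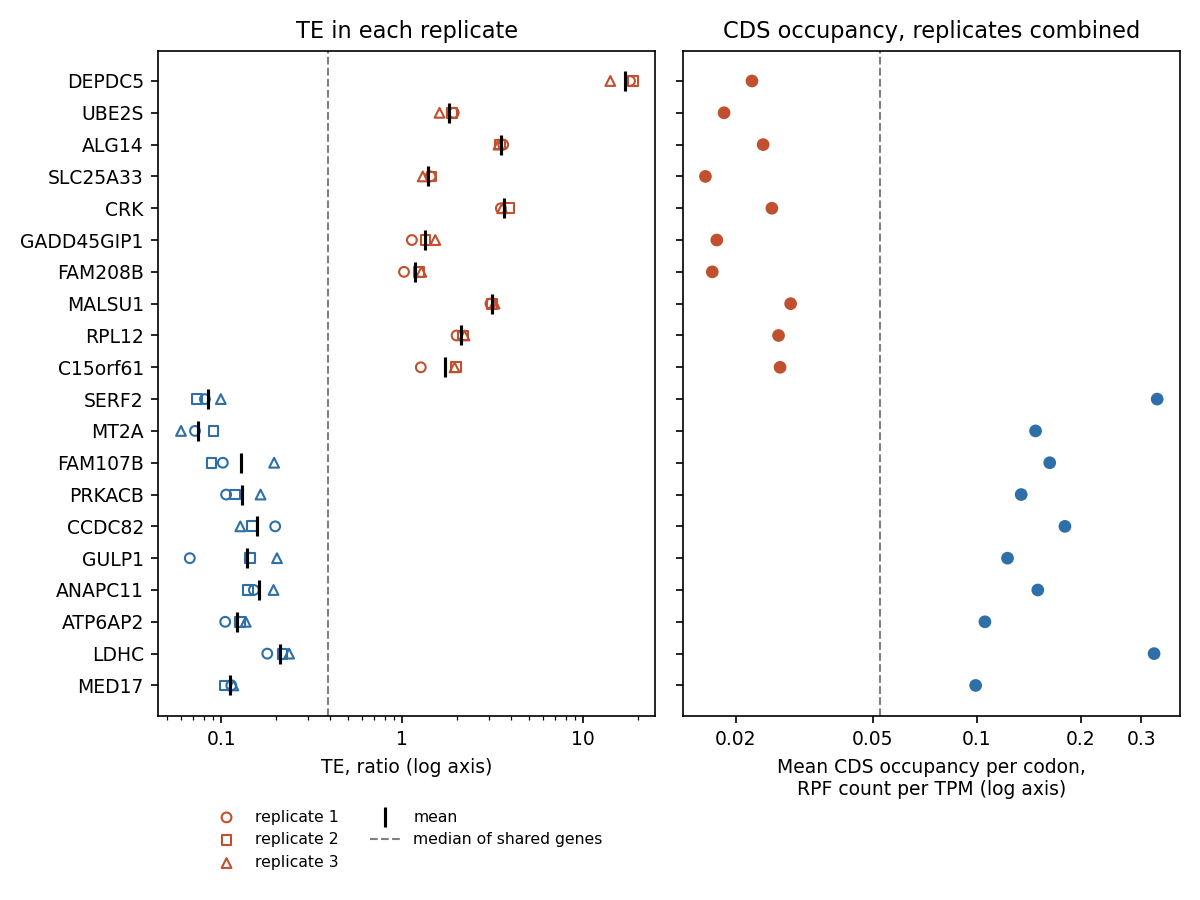
TE in each of 3 replicates with the mean (left, ratio on a log axis) and mean CDS occupancy with the replicates combined (right, RPF count per TPM and codon on a log axis) for the 10 members with the largest difference of each sign, and the medians of the shared genes as dashed lines. Every replicate of DEPDC5 to C15orf61 is above the TE median and every replicate of SERF2 to MED17 is below it, with occupancy on the other side of its median, as the rule that chose them sets.

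The members of this sign with the most CDS reads were DDX3X, CTNNB1, ATAD2, TUBB6 and OPA1. DDX3X, a DEAD-box helicase with roles in translation initiation, had a TE of 0.127, 0.124 and 0.139 (0.130 ± 0.00775, SD, n = 3) and an occupancy of 0.0782, from about 95473 reads. CTNNB1, which encodes β-catenin of cell adhesion and Wnt signalling, had a TE of 0.0530, 0.0568 and 0.0574, at percentile 1.37, and an occupancy of 0.0635, at percentile 60.1. OPA1, a GTPase that fuses mitochondrial inner membranes, had the lowest TE of all 150 members, at 0.0468, 0.0234 and 0.0575, and the lowest occupancy of the 81, 0.0592. CTNNB1 and OPA1 were thus members through a TE near the bottom of the table rather than through a high occupancy. They have 9 and 10 RefSeq isoforms and 0% shared CDS 30-mers.

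TUBB6, a β-tubulin, had a TE of 0.236, 0.222 and 0.296 and an occupancy of 0.210, with 19.2% of its CDS occupancy in a single codon. ATAD2, a bromodomain ATPase, had a TE of 0.284, 0.248 and 0.273 and an occupancy of 0.151. Of its CDS occupancy 72.2% lay in the second of 10 equal windows of the CDS.

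Of the gene lists, the zinc finger genes of the ZNF family gave the most members with TE below occupancy. They gave 10 of the 81 members (ZNF700, ZNF761, ZNF625, ZNF816-ZNF321P, ZNF426, ZNF91, ZNF709, ZNF566, ZNF701 and ZNF805) and 2 of the 69 members of the other sign (ZNF322 and ZNF740), which is 12.35% and 2.90% of these sets against 2.84% of all shared genes. Over the 196 ZNF genes the median difference was −5.93 points, with 120 negative and 76 positive. TE in these 10 ranged from 0.119 in replicate 1 of ZNF625 to 0.351 in replicate 3 of ZNF701. ZNF625 and ZNF709 share 100% of their CDS 30-mers with other annotated genes, ZNF816-ZNF321P shares 96.9% and ZNF426 only 2.995%.

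Other lists are given by their counts. SLC25A33, SLC35E3 and SLC9B2 were the members among 108 solute carriers and TMEM11 the member among 91 TMEM genes, all with TE above occupancy. The solute carriers were 4.35% of the 69 against 1.56% of all shared genes, and the TMEM genes 1.45% against 1.32%. Of 125 genes with open reading frame names, 3 had TE above (C15orf61, C3orf52 and C12orf45) and 4 had TE below (C3orf14, C11orf54, C15orf57 and CXorf40A), which is 4.35% of the 69 and 4.94% of the 81 against 1.81% of all shared genes. MAPK6 was the member among 15 genes of MAP kinases and their kinases, with TE above (1.45% of the 69 against 0.217% of all shared genes). TUBB6 was the member among 37 genes of families with near-identical copies, with TE below (1.24% of the 81 against 0.535%). With 1 member in each list, these shares say little. Histones of the replication-dependent type (9 genes), selenoproteins (5) and olfactory receptors and keratins (2) gave 0, and with so few genes this says little.

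The number of annotated mRNA isoforms, which the rule did not use directly, differed widely between the signs. It may not be independent of the rule, because occupancy is divided by the TPM of a single transcript. The counts are from RefSeq on GRCh38.p14, whereas the deposited data were aligned to hg19. Of the 69 members with TE above occupancy 48 (69.6%) had a single RefSeq mRNA isoform, against 11 of 81 (13.6%) with TE below. Over all shared genes the share was 35.0%. In the other direction, 7 of 69 (10.1%) and 44 of 81 (54.3%) had 5 or more isoforms, against 20.6% of all shared genes. The median was 1 isoform in the first set, 5 in the second and 2 over all. GENCODE gave the same order, with medians of 2, 10 and 4 coding transcripts. Members with TE above occupancy and many isoforms were few. They were DEPDC5, FAM208B, MEMO1, MRPL23, BRD7, SLC9B2 and GANC.

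A lean of the same direction was present across the table. The difference in percentile had a Spearman coefficient of −0.436 and a Pearson coefficient of −0.214 with the number of RefSeq isoforms over 6911 genes, given as a description of genes that share the same libraries and annotation. The median difference was 10.3 points in the 2420 genes with a single isoform, −2.27 points with 2 to 4 isoforms and −12.9 points in the 1424 genes with 5 or more. Members with TE above occupancy were 1.98% of the single-isoform genes and 0.492% of those with 5 or more, and members with TE below were 0.455% and 3.09%. TE and occupancy had a Spearman coefficient of 0.759 among single-isoform genes, 0.741 with 2 to 4 isoforms and 0.658 with 5 or more. The occupancy table uses a single transcript per gene. Whether the choice of that transcript sets the difference was not tested.

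Sequence shared with other genes was more common among members of both signs than in the table. At least 50% of CDS 30-mers occurred in a transcript of another gene in 22 of 68 members with TE above (32.4%) and in 14 of 79 with TE below (17.7%), against 9.59% of all shared genes with a matched CDS. Among those with TE above, PWP2, AIDA, EEF1G and RPS28 share 100%. Among those with TE below, CTNND1, SULT1A1, SMIM7, ZNF625 and ZNF709 share 100%. The contrast in isoforms was also present without these genes. Among genes under 50%, a single isoform was present in 31 of 46 (67.4%) with TE above and in 5 of 65 (7.69%) with TE below, against 35.5% overall. How reads of shared sequence were assigned in the TE and occupancy tables was not tested.

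The transcripts of the members also differed in layout. Where TE ranked above, the CDS had a median of 235 codons (stop codon included) and the 3′UTR a median length of 154 codons, and where TE ranked below these were 369 and 538. Over all shared genes they were 420 and 381 codons, so the median CDS was shorter than that of the table in members of both signs, while the median 3′UTR lay on either side of it. The 5′UTR had medians of 43, 62 and 54 codons in the same order. The CDS took a median of 58.4% of the transcript with TE above and 36.6% with TE below, against 48.1% overall. It took under 20% in 3 of 69 members (PNRC2, ZNF740 and NRARP) and in 18 of 81, against 10.4% of all shared genes. Occupancy was averaged over codons, and the order of the medians turned when it was summed over the CDS instead. Of the 150 members 43 were then kept. In the 150 genes newly chosen by the sum, the CDS took a median of 40.2% of the transcript with TE above and 79.4% with TE below. Very short CDSs, of 100 codons or fewer, were found in RPS28 and COX8A (TE above) and in SERF2, MT2A, ANAPC11, MRPL33 and SMIM7 (TE below), which is 2.90% and 6.17% of the sets against 2.47% overall.

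The amount of mRNA differed too, though it is not independent of the rule, because occupancy is divided by it. The smallest value above 0 of a transcript is about the worth of a read, and its inverse is proportional to TPM. Set to 1 at the median of the shared genes, this relative mRNA level had a median of 2.88 with TE above and 0.449 with TE below. EEF2 stood at 72.4 and UBE2S at 22.6, while DEPDC5 was at 0.194. The depth of RPFs differed less. CDS read equivalents, the summed occupancy divided by the smallest value, had medians of 3720 and 3002 against 3627 over all shared genes. They were under 500 in 6 members, all with TE above, and the lowest was 193 in GANC. Values of genes with so few reads rest on little data.

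Along the CDS, occupancy was unevenly spread in a few members. At least 80% of it lay in the first or in the second 50% of codons in 8 of 69 members with TE above (11.6%) and in 7 of 81 with TE below (8.64%), against 3.27% of all shared genes. Members of both signs had shorter median CDSs than all shared genes, and these shares were not matched for CDS length. The members below were chosen for these profiles after their values were seen. DNAJC25-GNG10, a readthrough transcript that joins a DNAJ gene to a G protein γ subunit, had only 1.92% of its occupancy in the first 50% of its codons. Its TE was 1.28, 1.47 and 1.41, and 94.7% of its CDS 30-mers are shared. TAF10, a subunit of TFIID, had 4.81% there, with a TE of 0.600, 0.565 and 0.588, and MEMO1 had 11.1%, with a TE of 2.31, 3.04 and 2.69.

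Profiles toward either end were present in both signs. Of the 8 with TE above, 7 were filled toward the stop codon and 1, GANC (82.3% in the first 50% of codons), toward the start. Of the 7 with TE below, 4 were filled toward the start, among them WBP2 (82.1%) and ATAD2 (85.3%), and 3 toward the stop codon, among them MRPL33 (14.2%) and PRPH (5.10%). ANAPC11, the RING subunit of the anaphase-promoting complex, had 96.6% of its occupancy in the first 50% of codons, with a TE of 0.152, 0.141 and 0.195 and 12 RefSeq isoforms. CUX1, a homeodomain transcription factor, had 81.7% there, with a TE of 0.151, 0.0948 and 0.141 and 7 isoforms. EEF2 (62.3%) and DDX3X (51.1%), the most deeply read members of each sign, carried occupancy across the whole CDS, and ATXN2 (69.0%) lay between. Over the sets the median share in the first 50% of codons was 46.9% with TE above and 48.6% with TE below, against 50.3% overall.

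**Figure D3:**
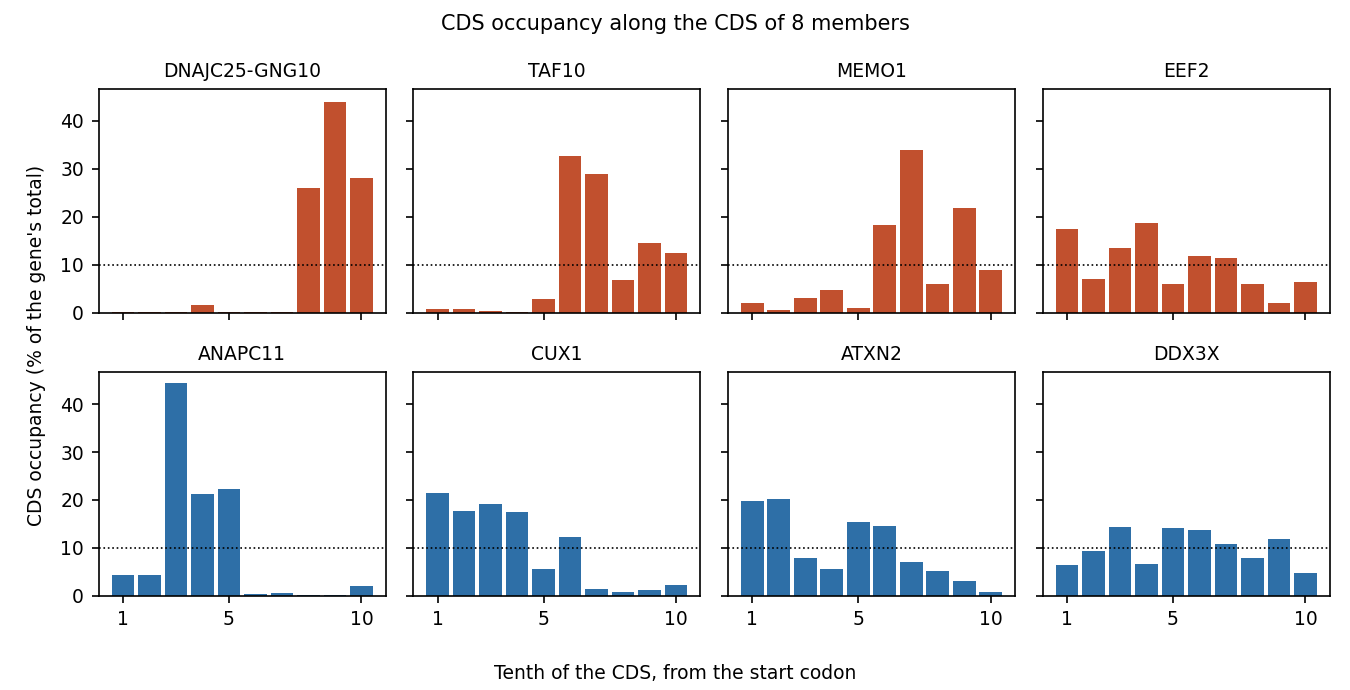
Share of a gene's CDS occupancy (y axis, %) in 10 equal windows of the CDS from the start codon (x axis) for 4 members with TE above occupancy (upper row) and 4 with TE below (lower row), replicates combined. The dotted line marks the 10% of an even spread. DNAJC25-GNG10, TAF10 and MEMO1 are filled toward the stop codon and ANAPC11 and CUX1 toward the start, while EEF2 and DDX3X are filled throughout.

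A single codon held at least 20% of the CDS occupancy in 9 members, 2 of 69 with TE above (2.90%) and 7 of 81 with TE below (8.64%), against 1.82% of all shared genes. The shares were not matched for CDS length, and a high codon raises the mean occupancy that the rule used. The sequences of 8 of these 9 members are shown because so much of the mean rests on a single position. Each line gives 4 codons on either side of the highest codon, which is in capitals, 5′ to 3′ on the coding strand, from GENCODE 44 transcripts on GRCh37 whose CDS matches the deposited length.
PRPH: ctcctcaacgtcAAGatggccctggac
LDHC: cttgttgtttcaAATccagtggatatt
PRDM2: gatgaagaagaaGAAgaagatgatgat
ZNF625: cgaatacatgaaAGAactcacactgga
MT2A: cagggctgcatcTGCaaaggggcgtcg
PPP1R14B: ctggttgactgtTACaaacccacagag
RPS28: gtgcgcgtggaaTTCatggacgacacg
ANAPC11: aacggatgctgcCCTgactgcaaggtg

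These 8 highest codons were all different. PRPH (chr12:49688930-49692469, plus strand) encodes peripherin, a neuronal intermediate filament, and had 48.6% of its CDS occupancy in codon 386 of 471. That codon was 2.64 times as high as the next highest. LDHC (chr11:18433865-18473610, plus strand), the lactate dehydrogenase of the testis, had 39.2% in codon 138 of 333, at 5.15 times the next. Its TE was 0.180, 0.218 and 0.237 and its occupancy of 0.327 was at percentile 97.8. PRDM2 (chr1:14026683-14151574, plus strand), a zinc finger methyltransferase, had 30.2% in codon 80 of 1482, in a window made only of gaa and gat codons.

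ZNF625 (chr19:12252905-12267549, minus strand) had 26.6% in codon 239 of 373, at 6.95 times the next, and all of its CDS 30-mers are shared. MT2A (chr16:56642496-56643409, plus strand) had 26.2% in codon 50 of 62. PPP1R14B (chr11:64011951-64014415, minus strand), an inhibitor of protein phosphatase 1, had 22.8% in codon 121 of 148. RPS28 (chr19:8386042-8388224, plus strand) had 20.5% in codon 34 of 70 and ANAPC11 (chr17:79848666-79858867, plus strand) had 20.0% in codon 35 of 85. In the last 2 the codon was only 1.16 to 1.19 times as high as the next.

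Removing the highest codon of every CDS left these genes on the same side. PRPH went from percentile 95.8 of occupancy to 86.5, LDHC from 97.8 to 95.1, and ZNF625 from 76.2 to 65.3. Of all members, 65 of 69 and 76 of 81 were still among the 150 largest differences without the highest codon, and all 150 kept their sign. Taking the median over codons in place of the mean kept 41 of the 150, and 69 of 69 and 74 of 81 kept their sign. The sum over the CDS kept 43 of the 150, and 68 of 69 and 80 of 81 kept their sign. With TE from a single replicate, 128 to 132 of the 150 were kept.

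Footprints in the 5′UTR were sparse beside the CDS. In-frame 5′UTR occupancy per codon had a median of 1.30% of the CDS occupancy with TE above, 2.66% with TE below and 2.42% overall. These ratios are not independent of the rule, because the CDS occupancy they are divided by helped choose the members. The highest values with TE above were 83.0% in ZNF740, 63.4% in GANC and 62.0% in HS3ST3A1. With TE below they were 39.6% in TLE4, a Groucho family corepressor, and 27.4% in GULP1. In ZNF740, with a TE of 1.46, 1.25 and 1.37, the codons of the 5′UTR were thus occupied nearly as densely as those of the CDS. These genes were named after their values were seen.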

How the data were processed

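Values come from 2 deposited tables made from 3 RPF and 3 total RNA libraries of HEK293 cells. The TE table holds a linear ratio per gene and replicate (8121 genes), as deposited by the authors, with no formula given in the sources used here. The occupancy table holds signal per codon for 9570 transcripts: in-frame counts of RPFs of 28 to 30 nt, normalised by the authors for library size and divided by TPM, replicates combined. The submitters' processing notes name cutadapt 1.16, Bowtie 1.1.2, TopHat2 2.1.1, HTSeq 0.9.1 and hg19, and the paper names Hisat2 for total RNA. In 31 transcripts (28 shared genes, 0 members) the CDS list was broken over lines. It was rejoined, and the codon at the break was set to missing.

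Percentile ranks were taken over the 6912 symbols in both tables, with no filter on low values, and the 150 largest absolute differences were kept. The members and gene lists were chosen with earlier results of these data known. Since both measures chose the members, no test was run, and sets are described by counts and medians beside those of all shared genes. Named genes are the 10 largest differences and the 5 with most CDS reads of each sign, the genes at the limit, and members of gene lists. Some genes that this rule takes are not reported here. Read numbers are summed CDS occupancy divided by the smallest value above 0 of the transcript, and are approximate. Total counts per library are not in the tables, so depth is known only this way.

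RefSeq (GRCh38.p14) gave mRNA isoforms for 6911 genes. GENCODE 44 lifted to GRCh37 gave coordinates, sequence and shared CDS 30-mers for 6666 genes (147 members), matched by symbol and CDS length. As a check of the code, genes with raised TE were planted in simulated data, and all of these were chosen. Genes with lowered TE were not planted, and that sign was checked only on a small example with a known answer. Python 3.11.15, numpy 2.4.6, pandas 2.3.3 and matplotlib were used. Alternatives changed the averaging of TE, the summary over codons, filters and the number kept.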

Additional observations from a re-analysis of the deposited data

How the results depend on the processing

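No paired analysis was possible because the results come from no test: the RPFs and total RNA of a number come from the same lysate and the ratio is taken within the pair. Of 198 values under alternatives, 123 moved by less than the SD between lists made from single replicates (for counts, by less than 1.5 times) and 75 moved by more. This SD is small, so a small move can exceed it, but some moves were large. With summed occupancy the median CDS length with TE below was 1894 codons in place of 369. The cause of a move was not tested. Leaving out a replicate kept 137 to 141 of the 150 members. In the newly chosen lists TE was above occupancy in 44% to 47.3% of genes. The Spearman coefficient of TE and occupancy was 0.681 to 0.692. All 150 genes chosen without a replicate had the same sign in it, but the pooled occupancy holds RPFs of that replicate too, so this is no independent support. The median CDS length was 229 to 235 codons with TE above and 351.5 to 373 with TE below, the CDS share of the transcript 57.4% to 58.4% and 34.25% to 37.9%, and the share in the highest codon 7.17% to 7.24% and 5.25% to 5.80%. The median number of RefSeq isoforms was 1 and 5 each time.

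In what follows, pairs of values are for TE above and TE below occupancy. A share, length, coefficient or isoform number not given differed by less than the SD. Shares, including those with TE above, lengths and isoform numbers describe the genes newly chosen under each alternative, not the members kept. Coefficients are over all genes ranked under it. The members kept were 129 with 100 or more codons above 0, 137 without the first and last 15 codons and 140 with the median TE. There were 141 without the highest codon, 143 with CDSs over 100 codons and 148 with either log2 mean. All 150 were kept with 25 or more codons above 0 and among the 300 largest. The counts of 150 say little. The largest differences are by construction among the 300 largest, and every member has at least 40 codons above 0. Both counts are among the 123 values that moved little. The summed occupancy kept 43 members, with TE above in 62%, a coefficient of 0.389, CDS lengths of 120 and 1894 codons, CDS shares of 40.2% and 79.4%, highest codon shares of 9.94% and 1.75%, and 7 isoforms with TE below. It turned the order of the CDS shares. Of the 43 members kept, 33 had TE above and 10 had TE below. The median over codons kept 41, of which 12 had TE above and 29 had TE below. The genes it chose had TE above in 80.7% and a CDS length of 358 codons with TE above. The coefficient was 0.5735. The CDS shares were 40.7% and 32.7% and the highest codon shares 7.53% and 4.34%, with 8 isoforms with TE below. The difference of z-scores kept 69, with TE above in 56%, a CDS length of 223 with TE above, highest codon shares of 7.37% and 6.36%, and 4 isoforms with TE below.

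Without the highest codon, the CDS length with TE above was 219 and its CDS share 55.3%, with highest codon shares of 7.59% and 5.25%. Without the first and last 15 codons, the length was 266.5, the CDS share 54.85%, and the highest codon shares 6.93% and 5.54%. With the median TE the length was 223. With the mean of log2(TE + 0.01) or of log2(TE + 0.1) it was 246.5, and the highest codon share with TE below was 5.74%. With 100 or more codons above 0, lengths were 310.5 and 431, highest codon shares 5.21% and 4.97%, and the CDS share with TE above 59.96%. With CDSs over 100 codons, lengths were 260 and 394 and highest codon shares 7.15% and 5.25%. The 100 largest differences gave a length of 223 with TE above, and a highest codon share of 5.73% and 6 isoforms with TE below. The 300 largest gave TE above in 42.3%, lengths of 296 and 389, highest codon shares of 6.47% and 5.20%, and a CDS share of 55.3% with TE above.

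Chosen after seeing the data, genes with under 5% shared CDS 30-mers kept 84 members, with TE above in 40%, a coefficient of 0.670, a length of 309.5 with TE above, highest codon shares of 6.095% and 5.045%, CDS shares of 54.5% and 34.25%, and 6 isoforms with TE below. Genes with a single isoform kept 57, with TE above in 40.7%, a coefficient of 0.759, a length of 223 with TE above, and a highest codon share of 5.41% and by construction 1 isoform with TE below. With filters, members outside the filter could not be kept. Apart from that filter, the median number of isoforms was lower with TE above than with TE below under every alternative run. Occupancy has no replicate error, and 340 of the 6912 genes had under 500 CDS read equivalents.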
